A study of Mus musculus with 4 samples.

Results

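The genes described here are 32 genes of glycolysis and of the response to low oxygen, read from bulk RNA-seq counts of embryonic mouse brain. They were chosen by gene symbol from a fixed list, out of 27293 genes in the table of 4 libraries. The rule used no measured value, but earlier results of these data were known. All 32 symbols were found, under 33 gene identifiers, because Aldoa is listed under a second identifier that overlaps the first on chromosome 7. They comprise the glucose transporters Slc2a1 and Slc2a3, 15 enzyme genes from hexokinase to pyruvate kinase and the regulator Pfkfb3, the lactate and pyruvate genes Ldha, Ldhb and Pdk1, the lactate transporters Slc16a1 and Slc16a3, the oxygen sensing genes Hif1a, Egln1 and Egln3, and 6 genes known as targets of hypoxia-inducible factor (HIF) outside glycolysis, Bnip3, Vegfa, P4ha1, Ankrd37, Ndrg1 and Car9.

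Glycolysis splits glucose into pyruvate in the cytoplasm, and pyruvate is either reduced to lactate by lactate dehydrogenase or passed to the mitochondrion. When oxygen is scarce, the prolyl hydroxylases encoded by Egln1 and Egln3 no longer mark the HIF alpha subunit for destruction, and HIF then raises the transcription of many glycolytic genes, of Vegfa and of Egln3 itself. Neural progenitors of the embryonic cortex rely strongly on glycolysis before the brain's vessels have grown in, and the shift to oxidative metabolism accompanies neuronal differentiation.

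The libraries were made from telencephalic tissue of C57BL/6 embryos at embryonic day 13 (E13), 2 labelled wild type (WT 1 and WT 2) and 2 labelled STINGf/f;Nestin-Cre (cKO 1 and cKO 2), with no further treatment. In the cKO embryos Cre recombinase under the Nestin promoter removes a floxed part of STING, an adaptor of cytosolic DNA sensing, in neural progenitors and the cells derived from them, while blood cells, microglia and most vessel and meningeal cells arise from other lineages. Whether the WT embryos carried the floxed allele or Cre is not given in the labels. The title of WT 1 ends in "wt" and that of WT 2 in "nes", an abbreviation that is not explained, so their genotypes may differ. Nothing states that the libraries came from separate litters or were not pooled, so p-values measure the spread between these libraries only.

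Counts on genes summed to between 17209654 and 18533391 per library. The STING gene, listed as Tmem173, had 20 reads in WT 1 and 19 in WT 2, next to 18 and 22 in cKO 1 and cKO 2, so the gene-level count did not separate the labels. A count over the whole gene does not show whether a floxed part is missing. The study reports a difference in STING protein between the genotypes, from Western blots of cortex at a later embryonic stage. WT 2 had 0 reads on 4 Y-linked genes, while the other libraries had 1848 to 3002. All 20 listed markers of cortical progenitors and cortical neurons passed the filter on low counts, among them Emx1 at 101 to 138 CPM (TMM-normalised read count scaled to library size). WT 1 stood apart from the other libraries in markers of tissue around the cortex. The summed level of 10 markers of meninges and mesenchyme was 297 CPM in WT 1 and 42.1 to 77.0 CPM in the others. That of 7 choroid plexus markers was 55.7 CPM against 7.00 to 9.45 CPM. Ogn, Fmod, Sostdc1 and Slc4a5 of these lists are among the 10 most lowered genes that the study named from this RNA-seq. In the study's own qPCR, only Slc4a5 of them differed at p under 0.05 (unpaired t-test). Slc4a5 had 53 reads in WT 1 and 10 in WT 2, against 1 in cKO 1 and 1 in cKO 2. None of Ogn, Fmod, Sostdc1 and Slc4a5 passed the filter, and WT 1 was highest for all 7 meningeal and all 3 choroid plexus markers that did. Results that rest on WT 1 are therefore given with and without it.

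None of the 32 genes was called between the labels. A gene was called at a fold change of at least 2 with an unadjusted p of at most 0.05 in edgeR's quasi-likelihood test, and 0.811% of the 16145 genes tested were called by this rule. None of the members had an unadjusted p under 0.05, where 1.23% of all genes did, and at an adjusted p under 0.05 no gene was called (0% of all genes). Of the 33 identifiers, 32 passed the filter on low counts and were tested, all but Car9. Their log2 fold changes, given throughout as cKO minus WT, ran from -0.83 to 0.29 with a median of -0.14, beside a median of -0.0094 over all genes tested. Of the 32 tested, 23 were negative and 9 positive, while 52.1% of all genes were negative. The groups did not overlap for 5 members. In 4 (Pdk1, Bnip3, Pfkp and Pfkfb3) each cKO library was lower than each WT library, as in 10.8% of all genes, and in 1 (Aldoc) each was higher, as in 11% of all genes.

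The libraries that share the WT label differed from each other in the level of these genes. They also differed in Y-linked reads, which WT 2 lacked, and the part of this difference was not tested. A ratio of 1 library to 1 other varies more than a difference between means of 2. The ratios below are therefore not on like terms with the fold changes between the labels. WT 1 ranked first among the libraries for 21 of the 32 tested identifiers, against 25.1% of all genes. Its normalised level was at least 1.5 times that of WT 2 for 13 of the 32, against 9.97% of all genes, and for none was WT 2 at least 1.5 times WT 1. The median log2 ratio of WT 1 to WT 2 over the 32 was 0.36, beside 0.0018 over all genes. Between the cKO libraries cKO 1 was the lower, with a median log2 ratio of cKO 1 to cKO 2 of -0.28 over the members and -0.02 over all genes. Set against each gene's mean over the 4 libraries, the members' median log2 level was 0.28 (WT 1) and -0.19 (WT 2), with -0.19 (cKO 1) and 0.07 (cKO 2). Each label thus held 1 library with a higher and 1 with a lower level of these genes.

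**Figure D1:**
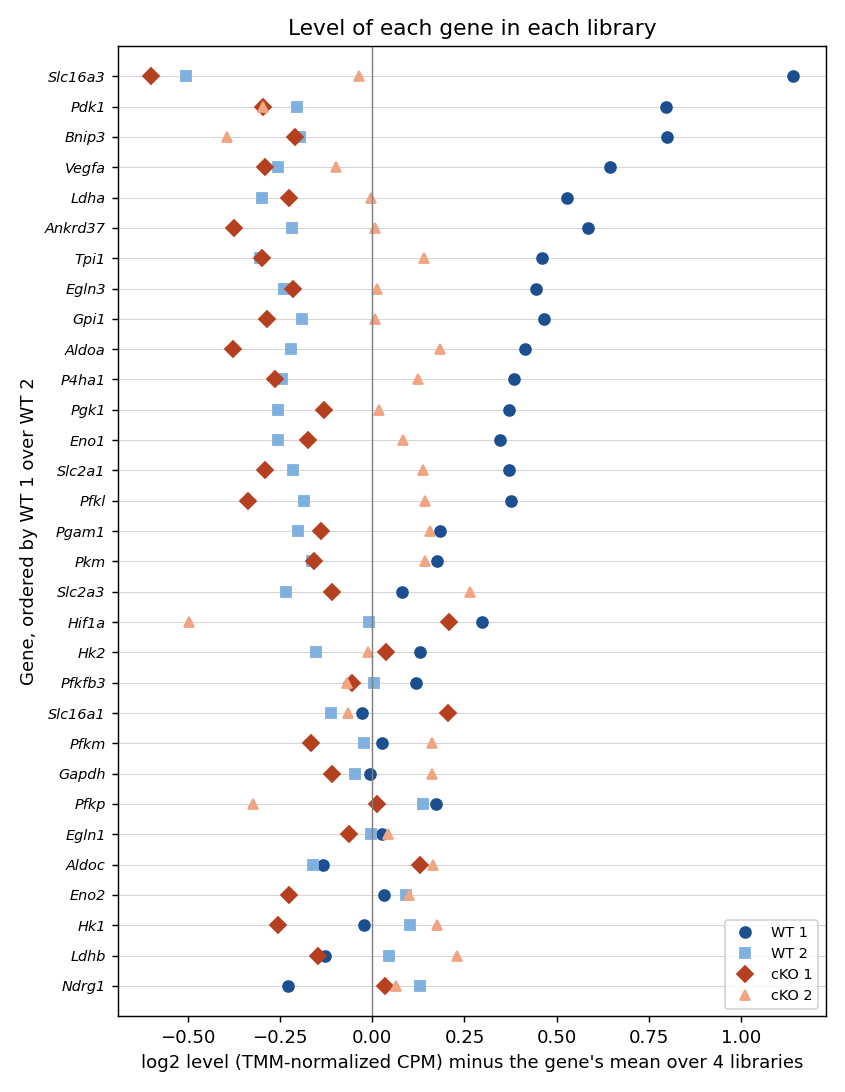
Log2 normalised level of the 31 tested symbols in each library minus the gene's mean over the 4 libraries (x axis), with genes ordered by the ratio of WT 1 to WT 2 (y axis). WT 1 (dark blue circles) is the rightmost point for the genes of the upper part, and WT 2 and cKO 1 lie to the left of 0 for most of them.

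The 5 largest differences between the labels belonged to Slc16a3, Bnip3, Pdk1, Vegfa and Ankrd37, all lower in the mean of cKO, and none passed the test. Slc16a3 encodes the monocarboxylate transporter that exports lactate from strongly glycolytic cells. Its level was 33.7 CPM in WT 1 and 10.8 in WT 2, against 10.1 in cKO 1 and 14.9 in cKO 2, so WT 1 alone was high and WT 2 lay between the cKO libraries. Its log2 fold change came to -0.83 ± 0.47 (SE), with an edgeR adjusted p = 0.9999.

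Bnip3, whose product takes part in the removal of mitochondria, was at 18.9 CPM in WT 1 and 9.50 in WT 2, next to 9.40 and 8.28 in cKO 1 and cKO 2. Its groups did not overlap, but WT 2 and cKO 1 had nearly the same number of reads (175 and 172). The log2 fold change came to -0.68 ± 0.34 (SE), with an edgeR adjusted p = 0.9999.

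Pdk1 encodes the kinase that holds back pyruvate dehydrogenase and so keeps pyruvate out of the mitochondrion. It had 80.2 CPM (WT 1) and 40.1 (WT 2), with 37.6 (cKO 1) and 37.6 (cKO 2). WT 1 was 2.00 times WT 2, while WT 2 and both cKO libraries lay close together. The log2 fold change came to -0.68 ± 0.29 (SE), and its unadjusted p in edgeR's fit, 0.0504, was the smallest among the members.

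Vegfa, the main growth factor for blood vessels, was at 169 CPM in WT 1 and 90.3 in WT 2, against 88.1 in cKO 1 and 101 in cKO 2, and Ankrd37, an ankyrin repeat gene induced by HIF, at 3.51, 2.01, 1.80 and 2.35 CPM in the same order. In both, WT 1 was the high library and WT 2 fell between the cKO libraries. Their log2 fold changes were -0.45 (standard error 0.27) and -0.41 (standard error 0.42).

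Without WT 1 these differences shrank or changed sign. The lone WT library was then WT 2, the library without Y-linked reads, so the label could not be told apart from a difference in sex. The log2 fold change became 0.21 for Slc16a3 (standard error 0.39), -0.09 for Pdk1 (standard error 0.34), -0.10 for Bnip3 (standard error 0.41), 0.06 for Vegfa (standard error 0.32) and 0.05 for Ankrd37 (standard error 0.60). Over the 32 identifiers, 9 were then negative and 23 positive, with 49.4% of all genes negative, and the members' median was 0.10. No member was called without WT 1, where 0.621% of all genes were. Without WT 2, with WT 1 as the lone WT library and its spread taken from the cKO libraries, Slc16a3, Pdk1 and Bnip3 were called, at log2 fold changes of -1.42, -1.08 and -1.08, in a fit that called 2.81% of all genes. Of these, only Slc16a3 had an adjusted p under 0.05 in that edgeR fit (adjusted p = 0.0114).

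**Figure D2:**
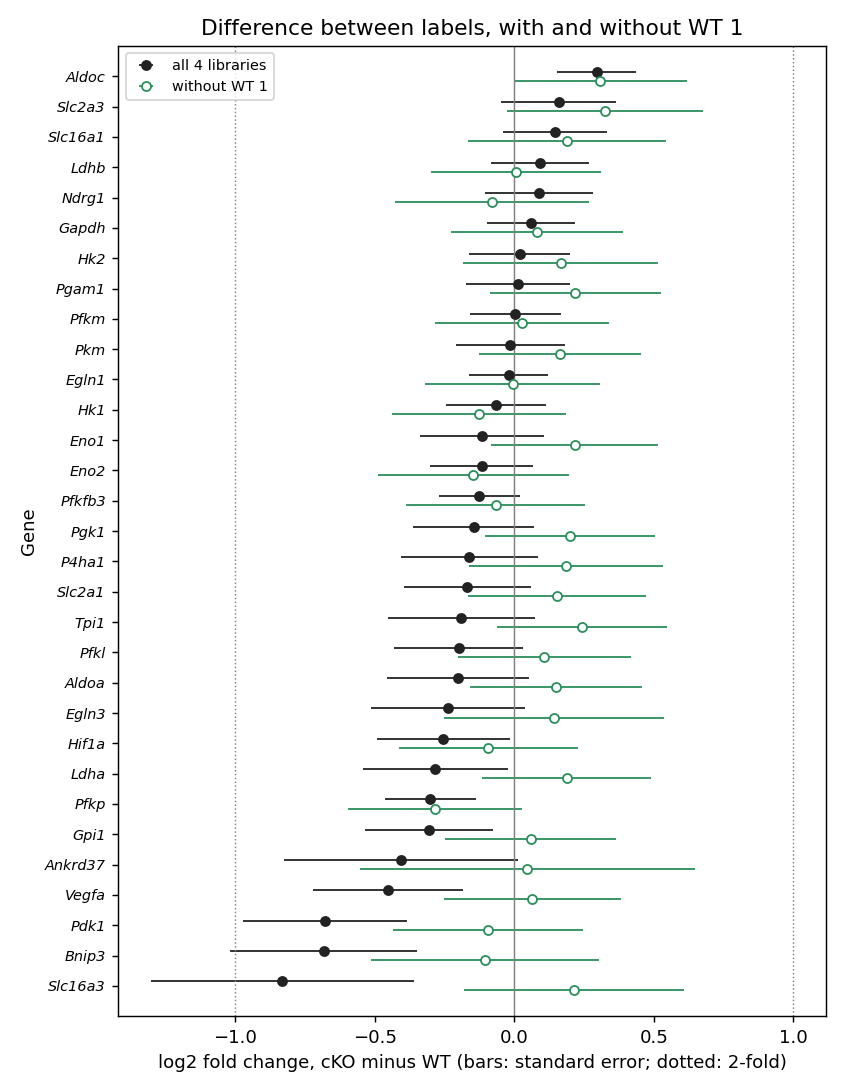
Log2 fold change of the 31 tested symbols, cKO minus WT (x axis), from all 4 libraries (black) and without WT 1 (green open circles), with standard errors as bars and dotted lines at a 2-fold change. Genes at the bottom such as Slc16a3, Bnip3 and Pdk1 lie left of -0.6 with all 4 libraries and near or right of 0 without WT 1.

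Among the transporters, Slc2a1, the glucose carrier of the blood-brain barrier, of red cells and of many glycolytic cells, was at 129 CPM in WT 1 and 85.8 in WT 2, next to 81.3 and 109 in cKO 1 and cKO 2. Its high libraries were thus WT 1 and cKO 2, and its log2 fold change came to -0.17 ± 0.23 (SE). Slc2a3, the carrier typical of neurons, had 34.3, 27.6, 30.1 and 39.0 CPM in the same order, with WT 2 lowest and a log2 fold change of 0.16 (standard error 0.21). Slc16a1, the widely expressed monocarboxylate carrier, varied less than Slc16a3, from 24.6 CPM in WT 2 to 30.7 in cKO 1.

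In the upper part of the pathway, Gpi1, Pfkl, Aldoa and Tpi1 resembled Slc2a1 in that WT 1 was highest and cKO 2 second. Gpi1, the isomerase that makes fructose 6-phosphate, had 329 CPM (WT 1) and 209 (WT 2), with 196 (cKO 1) and 240 (cKO 2). Tpi1, which interconverts the triose phosphates, had 499.8 CPM in WT 1 and 294 in WT 2, against 295 in cKO 1 and 400.5 in cKO 2. For both genes WT 2 and cKO 1 differed by less than the libraries of either label did from each other.

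Not every enzyme gene had this order. Hk1, the hexokinase that carries out the first step in most brain cells, was highest in cKO 2 at 139 CPM and lowest in cKO 1 at 103 CPM, with WT 1 and WT 2 between at 121 and 132 CPM. Hk2, the hexokinase raised by HIF, lay between 29.65 and 36.1 CPM in all libraries. Pfkfb3, which makes the activator of phosphofructokinase, ran from 70.1 CPM in cKO 2 to 79.9 CPM in WT 1 and its groups did not overlap, with a log2 fold change of -0.13 (standard error 0.15).

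Pfkp and Aldoc were the members whose difference between the labels changed least without WT 1 among those with groups apart. Pfkp, the platelet-type phosphofructokinase, had 121 CPM in WT 1 and 118 in WT 2, next to 108 and 85.8 in cKO 1 and cKO 2, and its log2 fold change came to -0.30 ± 0.16 (SE), with an edgeR adjusted p = 0.9999 with all libraries and -0.29 without WT 1. The cKO libraries moved it more, to -0.48 without cKO 1 and -0.13 without cKO 2. Aldoc, the aldolase of the brain, had 173 CPM (WT 1) and 170 (WT 2), with 208 (cKO 1) and 213 (cKO 2). It was the single member with both cKO libraries above both WT libraries, at a log2 fold change of 0.29 (standard error 0.14, adjusted p = 0.9999 from edgeR) and 0.31 without WT 1. Neither passed the test.

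In the lower part of the pathway, Pgk1, Eno1, Pkm and Pgam1 had WT 1 highest, cKO 2 second and WT 2 lowest. Pgk1, on chromosome X, makes the first ATP of the pathway and had 483 CPM in WT 1 and 312.5 in WT 2, against 341 in cKO 1 and 378 in cKO 2. Eno1, the enolase of most tissues, had 944, 622, 659 and 787 CPM in the same order. Pkm, the pyruvate kinase gene, was at 1543 CPM in WT 1 and 1220 in WT 2, next to 1225 and 1509 in cKO 1 and cKO 2. In all 4 genes the groups overlapped, and the log2 fold changes ran from -0.15 to 0.01. Eno2, the enolase of neurons, had its lowest level in cKO 1 (29.7 CPM) and 35.5 to 37.2 CPM in the other libraries.

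Gapdh, often used as a reference gene, was at 176 CPM (WT 1) and 171 (WT 2), with 164 (cKO 1) and 198 (cKO 2). Its reads are uncertain, because 90 other annotated genes, 85 of them pseudogenes, carry a stretch of at least 200 bases that is at least 95% identical to its transcript. Fewer such copies were found for Bnip3, Ldha and Pgk1 (4 each), Eno1 (3) and Gpi1, Ldhb, Pgam1, Pkm and Tpi1 (1 each), whose reads are uncertain for the same reason. Per kilobase Gapdh stood at 42.9 CPM, below its pathway neighbours Tpi1 at 135 and Pgk1 at 169 CPM per kilobase.

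Lactate dehydrogenase is built from the products of Ldha, a HIF target, and Ldhb, which prevails in oxidative tissue. Ldha had 688 CPM in WT 1 and 388 in WT 2, against 408 in cKO 1 and 476 in cKO 2, and WT 2 was the lowest library. Its log2 fold change came to -0.28 ± 0.26 (SE) and 0.19 without WT 1. Ldhb had 200, 225, 197 and 256 CPM in the same order and was lower in WT 1 than in WT 2. Per kilobase, the ratio of Ldha to Ldhb was 1.64 in WT 1 and 0.816 in WT 2, next to 0.981 and 0.882 in cKO 1 and cKO 2, so Ldha exceeded Ldhb in WT 1 alone.

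Other pairs that share a step also differed in balance between libraries. The ratio per kilobase of Slc16a1 to Slc16a3 was 0.929 in WT 1 and between 2.05 and 3.66 in the other libraries. Aldoa exceeded Aldoc per kilobase by a ratio of 1.84 in WT 1, 1.21 in WT 2 and 1.28 in cKO 2, but was below it in cKO 1 (0.887). Eno1 exceeded Eno2 in every library, by ratios from 14.7 in WT 2 to 23.3 in WT 1. Hk1 exceeded Hk2 by ratios from 2.13 in cKO 1 to 3.12 in WT 2.

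**Figure D3:**
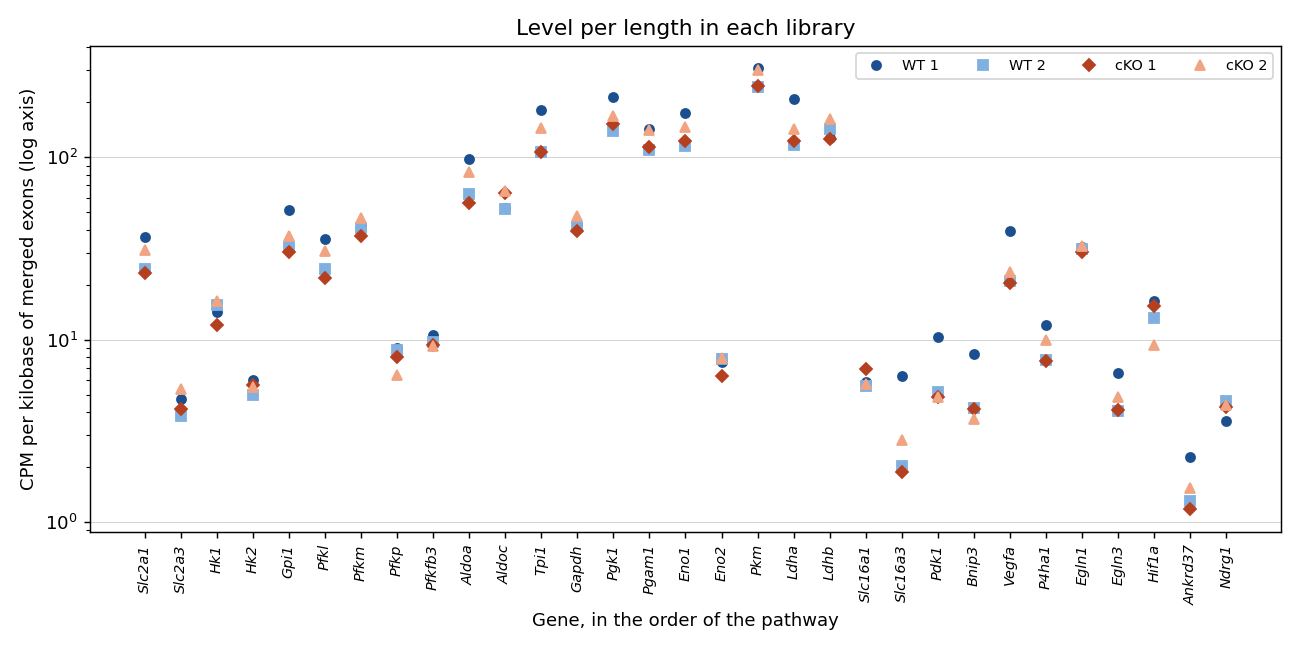
Normalised level per kilobase of merged exons (log axis) of the 31 tested symbols in the 4 libraries. Genes are in the order of the pathway, then the lactate and pyruvate genes. The HIF targets come last, on both sides of the oxygen sensing genes. Pkm is highest and the genes from Tpi1 to Ldhb, apart from Gapdh and Eno2, lie above 100 CPM per kilobase, while Slc16a3, Pdk1 and Bnip3 lie near or below 10.

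On the scale per kilobase, averaged over the 4 libraries, Pkm had the highest level at 275 CPM per kilobase. Pgk1 (169), Ldha (148), Eno1 (140), Ldhb (139.8), Tpi1 (135) and Pgam1 (127) followed, and neighbours among these 6 differed by less than the range of either over the libraries. The genes of phosphofructokinase and hexokinase stood lower, with Pfkm at 41.8, Pfkl at 28.1, Hk1 at 14.5, Pfkp at 8.08 and Hk2 at 5.54 CPM per kilobase. Merged exon length counts every annotated exon, which lowers the value of genes with long, rarely used exons.

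Of the oxygen sensing genes, Hif1a encodes a HIF alpha subunit. It had 95.9 CPM (WT 1) and 77.4 (WT 2), with 90.0 (cKO 1) and 55.2 (cKO 2), so WT 1 was highest and cKO 2 lowest, as in Bnip3 and Pfkfb3. The log2 fold change came to -0.25 ± 0.24 (SE), and HIF alpha is mainly controlled as a protein, which was not measured in these libraries. Egln1, the main prolyl hydroxylase, was among the steadiest members at 109 to 117 CPM. Egln3, the hydroxylase that HIF induces, had 17.4 CPM in WT 1 and 10.8 in WT 2, against 10.99 in cKO 1 and 12.9 in cKO 2, with WT 1 high and the groups overlapping.

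Among the HIF targets outside glycolysis, P4ha1, a collagen prolyl hydroxylase subunit, had 49.4 CPM in WT 1 and 31.9 in WT 2, next to 31.5 and 41.2 in cKO 1 and cKO 2. Ndrg1, a stress-responsive gene that HIF can raise, went against the others with its lowest level in WT 1 (23.6 CPM) and its highest in WT 2 (30.3 CPM). Car9, a carbonic anhydrase used as a marker of hypoxia, was near the limit of detection with 10, 5, 3 and 2 reads in WT 1, WT 2, cKO 1 and cKO 2, and did not pass the filter. The ratio of cKO to WT over its summed reads was 0.330, with an exact 95% interval from 0.0938 to 0.955 (counting error alone, without the spread between libraries). Without WT 1, an omission added after the data were seen, the ratio was 0.509 with an interval from 0.117 to 2.21. The second Aldoa identifier had 7 to 18 reads per library, and reads in its overlap with the first may not be assigned to either.

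To show what stands before these genes, promoter windows from RefSeq (GRCm38.p6) were read, each from 250 bases before to 50 bases after a transcript start. Windows were found for 30 of the 32 symbols, all but Slc2a3 and Ndrg1, and the one nearest the gene's listed start was used. The core letters of the HIF binding motif, ACGTG or GCGTG, were searched on both strands, and a palindromic CACGTG counts as 2 overlapping matches. Of the 30 windows, 23 (76.7%) held at least 1 match and 18 (60%) at least 2, against 43.8% and 20.6% of all 32851 windows of this length. The units differ, because a gene with several windows enters the 32851 with each, while a member enters with 1 and its others were unread. The chosen start lay up to 8458 bases from the gene's listed 5′ end (Aldoa). Both motifs contain CG, and the members' windows had a median GC content of 64.8% against 52.7% for all windows. Among members at least 1.5 times higher in WT 1 than in WT 2, 9 of 13 windows (69.2%) held a match, and among the other tested members 13 of 16 (81.2%) did.

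The windows of the 5 tested members with the highest ratio of WT 1 to WT 2 are shown first, and then those of the 3 with the lowest ratio among members with a window, from 5′ to 3′ with the matches in capitals. They lie at chr11:120948817-120949116 (plus strand) for Slc16a3, chr2:71872974-71873273 (plus strand) for Pdk1, chr7:138909457-138909756 (minus strand) for Bnip3, chr17:46032328-46032627 (minus strand) for Vegfa, chr7:46845554-46845853 (plus strand) for Ldha, chr6:124769624-124769923 (minus strand) for Eno2, chr10:62379859-62380158 (minus strand) for Hk1 and chr6:142507908-142508207 (minus strand) for Ldhb.
Slc16a3: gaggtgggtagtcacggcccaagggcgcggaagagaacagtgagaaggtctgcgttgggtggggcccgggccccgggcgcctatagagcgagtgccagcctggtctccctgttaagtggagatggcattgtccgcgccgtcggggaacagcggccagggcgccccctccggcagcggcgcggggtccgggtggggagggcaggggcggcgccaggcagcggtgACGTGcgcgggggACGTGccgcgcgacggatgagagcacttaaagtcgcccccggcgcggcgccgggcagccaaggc
Pdk1: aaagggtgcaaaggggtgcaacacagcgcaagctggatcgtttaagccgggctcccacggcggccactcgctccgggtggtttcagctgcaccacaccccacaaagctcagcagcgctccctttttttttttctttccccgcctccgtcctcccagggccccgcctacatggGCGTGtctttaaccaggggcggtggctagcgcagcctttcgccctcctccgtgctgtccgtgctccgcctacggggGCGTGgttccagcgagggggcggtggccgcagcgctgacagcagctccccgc
Bnip3: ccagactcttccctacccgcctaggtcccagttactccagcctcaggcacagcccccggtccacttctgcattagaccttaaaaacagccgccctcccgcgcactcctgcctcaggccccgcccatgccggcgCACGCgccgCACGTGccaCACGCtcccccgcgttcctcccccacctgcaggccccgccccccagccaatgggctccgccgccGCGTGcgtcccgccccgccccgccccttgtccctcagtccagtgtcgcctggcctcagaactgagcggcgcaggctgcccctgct
Vegfa: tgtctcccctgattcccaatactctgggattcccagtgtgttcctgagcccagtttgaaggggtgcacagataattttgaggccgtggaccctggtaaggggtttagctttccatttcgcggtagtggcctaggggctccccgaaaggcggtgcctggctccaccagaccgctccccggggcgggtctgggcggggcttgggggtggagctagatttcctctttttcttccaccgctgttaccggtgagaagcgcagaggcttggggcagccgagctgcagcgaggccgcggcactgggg
Ldha: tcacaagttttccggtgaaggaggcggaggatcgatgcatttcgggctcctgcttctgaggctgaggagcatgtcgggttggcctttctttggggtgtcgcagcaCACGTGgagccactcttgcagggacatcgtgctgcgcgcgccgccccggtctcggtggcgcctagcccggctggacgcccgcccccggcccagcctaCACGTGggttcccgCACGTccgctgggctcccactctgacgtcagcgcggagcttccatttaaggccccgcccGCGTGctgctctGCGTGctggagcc
Eno2: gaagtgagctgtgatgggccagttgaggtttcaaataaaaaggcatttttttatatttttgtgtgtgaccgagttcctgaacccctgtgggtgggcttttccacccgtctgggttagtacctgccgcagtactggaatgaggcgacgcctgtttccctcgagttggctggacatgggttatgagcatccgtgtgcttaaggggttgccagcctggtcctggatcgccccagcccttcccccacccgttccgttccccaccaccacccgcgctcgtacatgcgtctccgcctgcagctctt
Hk1: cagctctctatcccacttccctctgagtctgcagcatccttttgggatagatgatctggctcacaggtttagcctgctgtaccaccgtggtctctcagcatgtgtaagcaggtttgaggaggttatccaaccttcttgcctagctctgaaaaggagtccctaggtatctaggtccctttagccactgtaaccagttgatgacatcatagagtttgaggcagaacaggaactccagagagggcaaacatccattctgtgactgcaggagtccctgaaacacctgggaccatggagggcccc
Ldhb: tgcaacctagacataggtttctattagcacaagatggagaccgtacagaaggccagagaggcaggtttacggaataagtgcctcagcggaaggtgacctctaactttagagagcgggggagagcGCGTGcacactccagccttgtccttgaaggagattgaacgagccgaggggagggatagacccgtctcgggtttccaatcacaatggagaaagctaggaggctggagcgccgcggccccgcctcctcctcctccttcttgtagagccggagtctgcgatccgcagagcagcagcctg
Ldha held 7 matches, Bnip3 5, Slc16a3 2, Pdk1 2 and Ldhb 1, while the windows of Vegfa, Eno2 and Hk1 held none. A match is a run of letters and not a measured binding site, and a window without one leaves the sequence farther away unread. The transcript start of the Ldha window lies 4329 bases, and that of the Slc16a3 window 587 bases, from the gene's listed 5′ end.

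The other genes of these pathways were read from lists that did not include the members. Of 35 other glycolysis and pyruvate genes, 29 were tested and 0 were called, where 0.811% of all genes were. Their log2 fold changes had a median of -0.05, with 16 negative and 13 positive, where 52.1% of all genes were negative. The largest were those of Hk3, a hexokinase of blood cells, at -0.79 (standard error 0.48), of the monocarboxylate carrier Slc16a7 at -0.38 (standard error 0.42) and of the phosphoglucomutase Pgm2 at -0.35 (standard error 0.21). Without WT 1 these were -0.65 for Hk3, -0.47 for Slc16a7 and -0.12 for Pgm2. WT 1 ranked first for 8 of the 29, and 1 of the 29 was at least 1.5 times higher in WT 1 than in WT 2. The same count among the members was 13 of 32, and the difference between the lists was not tested.

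Of 31 other hypoxia genes, 30 were tested and 1 was called, where 0.811% of all genes were. Large differences that did not pass the test were those of Adm, a vasodilator peptide gene, at -1.06 (standard error 0.58) and Car12, a carbonic anhydrase gene, at -0.84 (standard error 0.53). Without WT 1 they were -0.35 for Adm and 0.25 for Car12. Of the 30, 23 had a negative and 7 a positive log2 fold change with all libraries, where 52.1% of all genes were negative. Without WT 1, 13 were negative, where 49.4% of all genes were. The library WT 1 ranked first for 16 of the 30, against 25.1% of all genes. It was at least 1.5 times WT 2 for 7 of the 30, against 9.97% of all genes, so the members were not alone in this.

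Marker lists of cell types and regions also differed between libraries in sum. Those of blood, microglia and ventral telencephalon had WT 1 first and cKO 2 second, as the members had, and the other marker lists did not. In ventral telencephalon WT 1, cKO 2 and WT 2 lay close together, and cKO 1 alone was low. The summed level of 10 blood markers, embryonic globins among them, was 1092 CPM in WT 1 and 592.5 in WT 2, against 477 in cKO 1 and 729 in cKO 2, with WT 1 highest for 9 of the 10. The summed level of the members was 7176 CPM in WT 1 and 5257 in WT 2, next to 5257 and 6295 in cKO 1 and cKO 2, so WT 1 was first and cKO 2 second in both. The 11 endothelial markers summed to 277, 222, 197.5 and 207 CPM and the 8 microglia markers to 48.2, 35.4, 31.6 and 39.5 CPM in the same order, and all of both lists were tested. Of the 10 markers of meninges and mesenchyme 7 were tested, and 3 of the 7 choroid plexus markers were tested, with Folr1 at 0 reads in WT 2. Cortical progenitor markers varied less, from 2702 to 2915 CPM in sum. The 9 markers of ventral telencephalon summed to 1136 CPM in WT 1 and 1077 in WT 2, against 724 in cKO 1 and 1127 in cKO 2, and cKO 1 was the lowest library for 8 of the 9. Among the members cKO 1 was the lowest library for 16 of 32, against 4415 of the 16145 genes tested. It was also lowest for 8 of the 10 blood, 9 of the 11 endothelial and 7 of the 8 microglia markers. The part of these cells and regions in the levels of Slc2a1, Slc16a3, Vegfa and the other members was not tested, and in bulk tissue fewer cells of a type cannot be told apart from less RNA per cell.

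**Figure D4:**
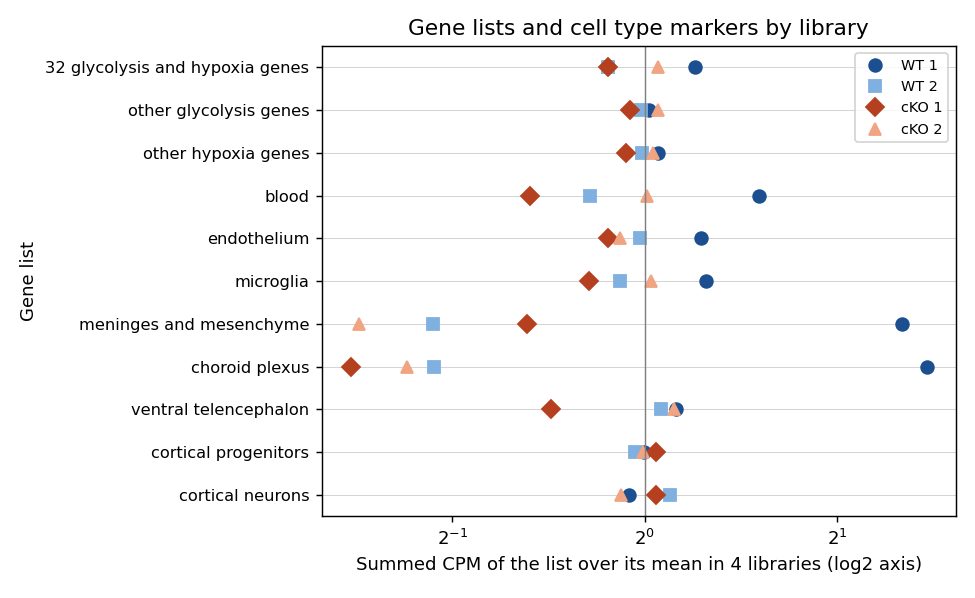
Summed level of each gene list in each library, divided by the list's mean over the 4 libraries (log2 axis). WT 1 lies to the right of 1 for the members and for all lists of blood, vessel, microglia, meninges and choroid plexus markers, and near 1 for cortical progenitors, while cKO 1 lies farthest to the left for ventral telencephalon.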

How the data were processed

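Members, gene lists and tests were chosen with earlier results of these data known. The authors deposited raw counts of reads per gene, without normalization. The submitters' processing notes list Bowtie2 2.2.3, TopHat2 2.0.12, HTSeq 0.6.0 and the build mm9, yet 97.3% of the 27232 genes found in GENCODE M21 have a listed start or end within 1 base of it, so positions were read as GRCm38. The strand setting and handling of duplicate reads are not given in the sources used here. HTSeq commonly leaves out reads that fit several places, which lowers genes with near-identical copies. Of 27304 rows, 11 (blank) were left out, and the 21342 genes shared with the table of cKO 1 and WT 1 have identical counts. Deposited columns of fold changes, p-values and mean values were not used.

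Labels were compared with edgeR 4.0.16 in R 4.3.3, by its quasi-likelihood test with no covariate, after TMM scaling and filterByExpr, and p was adjusted by Benjamini-Hochberg over 16145 genes. Thresholds on fold change and p followed the study. Standard errors are the log2 fold change divided by the square root of F. Levels are TMM-normalized CPM. The limit a count of 0 allows, 3 counts, is 0.162 to 0.174 CPM of the total counts, without the TMM factor. Exon lengths are from GENCODE M21. With 2 libraries per label an exact two-sided permutation test cannot go below p = 0.3333. Copies were found with BLAST 2.17.0. Promoter windows are from RefSeq. DESeq2 1.42.0 and other settings were alternatives. The fit was tested on simulated data. All members are accounted for. Values are given in full for the 5 largest log2 fold changes and for members whose groups did not overlap with a log2 fold change of at least 0.3 in size, and of the other pathway genes those called and the 3 largest per list are named. Ttr and Clic6 of the choroid plexus list and Epo of the hypoxia list were not analysed here. The called gene of the hypoxia list is not reported here.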

Additional observations from a re-analysis of the deposited data

How the results depend on the processing

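With RLE or upper-quartile normalization, no filter, at least 10 counts in every library or DESeq2, no member was called or changed direction. At an unadjusted p under 0.05 there were 0 members in the reported fit. There was 1 with upper-quartile normalization and 1 with DESeq2, Pdk1 in both. With no filter there were 4 (Slc16a3, Pdk1, Bnip3 and Vegfa). The share of all genes under this p was 1.23% in the reported fit. It is not given here for the other fits, so their member counts at this p stand without a background. The count of all genes called was 131, and 405 with no filter, 72 when each library had to hold 10 or more counts, 65 with DESeq2 and 14 at an unadjusted p of at most 0.01, while 65 genes had an adjusted p under 0.05 with no filter, against 0. The cause of these differences was not tested. With no normalization factor WT 2 was the highest library for 2 members in place of 1.

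The replicate numbers are shared between the labels, without a source tying a number to a litter or day, and deviations of same-numbered libraries correlated at 0.139 across genes. With the replicate block, 208 genes were called, 5 had an adjusted p under 0.05, 3 members had an unadjusted p under 0.05 and none was called, and the log2 fold change of Pfkm was -0.0054 in place of 0.0036.

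Leaving out 1 library at a time, where the lone library of a label is assumed to vary like the others, gave 104 to 531 genes called, 0 to 116 with an adjusted p under 0.05, 0 to 3 members called and 0 to 5 members with an unadjusted p under 0.05. The counts of all genes called were 104 without WT 1, 476 without WT 2, 531 without cKO 1 and 121 without cKO 2. The 3 called members were Slc16a3, Pdk1 and Bnip3 without WT 2. Without cKO 1, Pfkp, Aldoc and Hif1a had an unadjusted p under 0.05 and were not called, and the median over members ran from -0.34 without WT 2 to 0.10 without WT 1. Log2 fold changes that turned sign ran from -0.42 to 0.15 for Slc2a1, -0.026 to 0.34 for Slc2a3, -0.29 to 0.14 for Hk1, -0.10 to 0.17 for Hk2, -0.59 to 0.059 for Gpi1, -0.45 to 0.11 for Pfkl, -0.16 to 0.16 for Pfkm, -0.50 to 0.15 for Aldoa, -0.90 to 0.47 for Aldoa (second identifier). Further ranges were -0.51 to 0.24 for Tpi1, -0.070 to 0.19 for Gapdh, -0.41 to 0.20 for Pgk1, -0.15 to 0.22 for Pgam1, -0.37 to 0.22 for Eno1, -0.27 to 0.038 for Eno2, -0.16 to 0.16 for Pkm, -0.63 to 0.19 for Ldha, -0.095 to 0.27 for Ldhb. The remaining ones were -1.42 to 0.21 for Slc16a3, -0.82 to 0.065 for Vegfa, -0.43 to 0.19 for P4ha1, -0.062 to 0.035 for Egln1, -0.53 to 0.14 for Egln3, -0.65 to 0.068 for Hif1a, -0.74 to 0.046 for Ankrd37, -0.080 to 0.29 for Ndrg1. Car9, with 15 reads in WT and 5 in cKO, was removed by the filter on low counts, and with no filter its log2 fold change was -1.56 (standard error 1.09).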
